A study of Mus musculus with 36 samples.

Results

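Cytosolic ribosomal proteins are the protein parts of the ribosome that translates nuclear-encoded mRNAs. Their genes were taken from the table of counts by name: symbols made of Rpl or Rps, a number and at most one of the letters a, x or l, together with Rplp0, Rplp1, Rplp2 and Rpsa. The pattern found 83 symbols, of which 3 were annotated as pseudogenes (Rpl32l, Rpl6l and Rps4l) and were left out. This left 80 protein-coding genes of 56980 genes in the table, 49 of the large subunit (Rpl) and 31 of the small subunit (Rps). A filter on low counts kept 79 of them among 25601 tested genes. The gene that did not pass, Rpl10l, had 0 counts in all 36 samples, where a count of 0 allows up to 3 counts in a library. Ribosomal protein genes with other names, such as Fau and Rack1, fall outside the pattern and are given as a separate list.

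A ribosome has a small subunit, which reads the mRNA, and a large subunit, which joins the amino acids, and each is built in the nucleolus from ribosomal RNA and many small proteins needed in equal number. Mammalian ribosomal protein mRNAs begin with a terminal oligopyrimidine motif, a C followed by a run of C and T, through which the kinase complex mTORC1 and the RNA-binding protein LARP1 control their translation and stability. In the brain these mRNAs are present in neurons and glia alike, and translation is a large part of the energy use of a cell, which is supplied by mitochondrial respiration.

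The samples were polyA RNA from brain tissue of mice aged 37 to 45 days, and the study's design names hippocampus and cortex as the tissue taken. Mice that lacked Ndufs4 (KO) and wild-type mice (WT) received CP2, an inhibitor of respiratory complex I, or vehicle by gavage on 3 days. The titles add a letter, F or M, so that there were 8 groups: KO CP2 F, KO vehicle F, WT CP2 F, WT vehicle F, KO CP2 M and WT CP2 M with 5 samples each, and KO vehicle M and WT vehicle M with 3 samples each. Every group, wild types included, was handled by gavage. The labels give neither the strain nor the allele of the knockout, and they do not say outright that each sample is a separate mouse, so p-values measure the spread between these samples. Ndufs4 encodes a subunit of complex I, and the design asks how its loss, CP2 and both together change expression in the brain.

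Gene counts summed to 4.61e+07 to 8.86e+07 per sample. The targeted gene, Ndufs4, had 30.2 to 37.1 CPM (gene counts scaled to a common library size) in KO vehicle F and 45.2 to 58.9 CPM in WT vehicle F, and 27.4 to 29.5 CPM in KO vehicle M against 38.9 to 50.1 CPM in WT vehicle M. With CP2 it had 31.3 to 37.4 CPM in KO against 45.9 to 62.8 CPM in WT in F, and 29.6 to 39.1 CPM against 42.3 to 48.5 CPM in M. It was therefore lower in KO without overlap, but it was not absent. Of the brain markers, Snap25, a synaptic protein of neurons, had group means of 1560 to 1900 CPM, and Slc17a7, the glutamate transporter of excitatory neurons, 828 to 1340 CPM. Within KO CP2 M the libraries L291 and L266 stood apart: L291 had 47.3 CPM of Xist, the RNA of the inactive X chromosome, against at most 0.833 CPM in the other M samples and 439 to 798 CPM in the F samples, and L266 differed from each of the other 4 libraries by a mean chi-square of 83.2 to 117 over genes, where the 6 pairs among those 4 gave 19.5 to 40.7. The Y-linked gene Ddx3y had 61.8 to 84.5 CPM in all M samples, with 71.4 to 84.5 CPM in KO CP2 M, and at most 0.214 CPM in the F samples. Results that rest on KO CP2 M are also given without L266 and L291, which leaves 3 samples in that group. Since the tissue is a mixture, fewer cells of a type and less RNA per cell cannot be told apart.

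The start of the transcript is shown first for 8 members that the results below turn on, since it holds the shared sequence element of the family. Rps12, Rps21, Rps27, Rps28 and Rpl35a are among the members with the largest changes, Rpl22 is the one with the smallest change after CP2 in KO M, Rps6 is the ribosomal target of S6 kinase and Rpsa is the laminin receptor, a small-subunit protein. Each line gives 15 bases before the RefSeq start and 15 from it on (GRCm38.p6), on the gene's strand, with the longest run of at least 6 C or T bases beginning with C in capitals. The windows are, in this order, Rps6 at chr4:86857353-86857382 (minus strand), Rps12 at chr10:23787195-23787224 (minus), Rps21 at chr2:180257364-180257393 (plus), Rps27 at chr3:90213634-90213663 (minus), Rps28 at chr17:33824548-33824577 (minus), Rpl35a at chr16:33056438-33056467 (plus), Rpl22 at chr4:152325711-152325740 (plus) and Rpsa at chr9:120127751-120127780 (plus).
Rps6: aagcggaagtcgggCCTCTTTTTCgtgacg
Rps12: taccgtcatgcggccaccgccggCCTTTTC
Rps21: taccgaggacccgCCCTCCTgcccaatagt
Rps27: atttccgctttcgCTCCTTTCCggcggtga
Rps28: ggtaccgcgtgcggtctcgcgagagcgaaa
Rpl35a: gcggggcgtgcgtcccacaaggccgcgcgg
Rpl22: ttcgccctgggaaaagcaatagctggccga
Rpsa: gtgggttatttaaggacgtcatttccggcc
In Rps6, Rps21 and Rps27 the run spans the annotated start, while no run of that length lies in the windows of Rps28, Rpl35a, Rpl22 and Rpsa, which says only that these letters are not in the 30 bases printed. RefSeq start windows of 300 bases, 250 before the start and 50 from it on, were found for 60 members (72 windows) and for all genes together (32851 windows). A run of at least 6 C or T beginning with C within 25 bases of the start was present in 61.1% of the members' windows and 35.0% of all windows, on the transcript's strand. CTCTTTC was present in 27.8% against 8.16%, CTTTCC, which can overlap it, in 36 of 72 windows against 26.6%, and CCGGAAG, the core bound by ETS factors, in 36.1% against 8.86%, each searched on both strands. These are shares of matching letters and not of bound sites.

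Read per coding length, the members differed widely in level. Reads from the whole mRNA are counted, so this measure is raised in members whose coding part is a small part of the transcript. Rpl41, for one, has 75 coding bases in a transcript of 544 bases. The order per transcript length was not computed. Over all samples Rpl41, the smallest protein of the large subunit, had the highest value with 3010 CPM per kilobase of coding sequence, followed by Rplp1, an acidic protein of the ribosomal stalk, with 1230 and Rps21, a small-subunit protein, with 663. At the other end were the paralogues: Rpl39l had 0.456 and Rpl3l, a form known from muscle, 0.156 CPM per coding kilobase, and Rpl10l, a form known from testis, had no counts. Their partners Rpl39, Rpl3 and Rpl10 were expressed in all samples, with Rpl10 at 361 CPM per coding kilobase. Rps27l, a paralogue of Rps27, lay lowest among the other 77 members with 46.0 CPM per coding kilobase, and between 7.44 and 16.1 CPM in all samples. Rpl39l reached at most 20 counts and had 0 in 17 libraries, and Rpl3l reached at most 32 counts, so that changes of this pair were not measurable at this depth. The counts of many members are uncertain in a further way: 77 of 80 members share at least 1 window of 50 bases with another annotated gene. In 48 members over 50% of the windows are shared. Reads without a unique match have a row of their own in the table, with a share of 4.05% to 5.91% over the samples. Whether such reads were also counted for genes is not stated, so all levels are those of the reads that the authors assigned to the gene.

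Ribosomal protein mRNA was higher in the F samples than in most M samples. Together the 80 genes took 1.36% to 1.72% of gene counts in the 20 F samples and 1.07% to 1.33% in the 11 samples of WT vehicle M, WT CP2 M and KO vehicle M, without overlap. The gap was narrow, with the lowest F sample at 1.363% and the highest of these M samples at 1.333%. With the top gene of the table left out of the gene counts, these 2 samples were at 1.38% and 1.378%, so the gap nearly closed. KO CP2 M lay with the F samples in 4 of its 5 libraries, with 1.65% in L266, 1.56% in L291, 1.51% in L292 and 1.63% in L299. The remaining library, L298, had 1.24% and lay with the other M samples. The 95% Wilson interval of each share, which covers counting error only, was at most 0.0035 percentage points to either side.

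**Figure D1:**
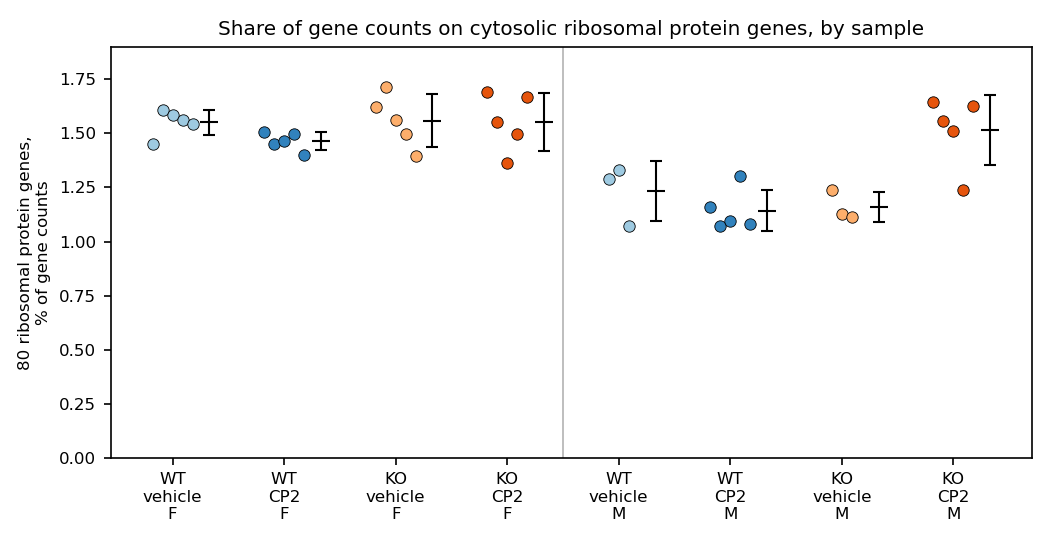
Percent of gene counts on the 80 cytosolic ribosomal protein genes (vertical axis) in each of the 36 samples, by group, with the group mean and SD beside the points. The 20 F samples lie between 1.36% and 1.72% and the M samples between 1.07% and 1.33%, except for 4 of the 5 KO CP2 M samples at 1.51% to 1.65%.

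In group means the share was 1.55% ± 0.060 (SD, n = 5) in WT vehicle F, 1.46% ± 0.043 (SD, n = 5) in WT CP2 F, 1.55% ± 0.134 (SD, n = 5) in KO CP2 F and 1.56% ± 0.122 (SD, n = 5) in vehicle-treated KO F. In M it was 1.23% ± 0.139 (SD, n = 3) in WT vehicle, 1.14% ± 0.097 (SD, n = 5) in WT CP2, 1.16% ± 0.069 (SD, n = 3) in KO vehicle and 1.52% ± 0.163 (SD, n = 5) in KO CP2, or 1.46% ± 0.198 (SD, n = 3) without L266 and L291. The group means of single genes also set the F groups and KO CP2 M above the other 3 M groups. Within the F groups and KO CP2 M their order differed from that of the share. Among the 77 members of at least 1 CPM, the mean of KO CP2 M was above those of the other 3 M groups in 77, and every F group mean was above those 3 M groups in 77. The share of all tested genes with these orders was not computed. By single samples, every F sample was above every sample of those 3 M groups in 25 of the 77 members. The share of all tested genes that did so was not computed either. The lowest of the 8 group means was that of WT CP2 M in 39 members, KO vehicle M in 36 and WT vehicle M in 2. The highest was that of WT vehicle F in 36, KO CP2 M in 23, KO CP2 F in 14 and KO vehicle F in 4. Without L266 and L291 the mean of KO CP2 M was still above the other 3 M groups in 77, and it was the highest of all in 7, with WT vehicle F highest in 44. Counted by sample, L266 and L299 of KO CP2 M were above the member's median over all samples in 77 of 77 members, L292 in 68 and L291 in 66, but L298 in 2. In the 11 samples of the other M groups that number was 0 to 3, and in the F samples it ran from 17 to 77. The members thus moved as a block between samples, and L298 was the lowest library of KO CP2 M for 76 of 77 members.

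Treatment of KO M mice with CP2 was the first of the comparisons in which ribosomal protein mRNAs rose. CP2 against vehicle in KO M gave 72 members higher and 0 lower of 79 (edgeR quasi-likelihood test, adjusted p under 0.05), where 2.36% of all tested genes were called higher. The median log2 fold change of the members was 0.44, a ratio of 1.35, against 0.00 for all genes tested. Of the small-subunit members 30 of 31 rose, and of the large-subunit members 42 of 48. In 58 members the lowest CP2 sample lay above the highest vehicle sample, where 6.63% of all tested genes did so. The 7 members that did not pass were Rpl39l and Rpl3l, which are near 0, and Rps29, Rpl38, Rpl41, Rpl39 and Rplp2, which had positive log2 fold changes of 0.36 to 0.70. The rule of the largest changes named Rpl35a, Rps27, Rps21, Rps28 and Rpl37a, all small proteins.

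Rpl35a, a large-subunit protein mutated in some families with Diamond-Blackfan anaemia, had 148, 117, 124, 92.9 and 128 CPM in KO CP2 M and 76.5, 70.8 and 75.3 CPM in KO vehicle M. All 5 treated samples were above all 3 vehicle samples, with L298 the nearest to them. The log2 fold change was 0.72 (SE 0.130, adjusted p = 0.00105). Rps27, a zinc-finger protein of the small subunit, had 178, 176, 144, 107 and 161 CPM against 90.5, 100.2 and 89.3 CPM. Here too the groups did not overlap, and the log2 fold change was 0.71 (SE 0.152, adjusted p = 0.00473). Its paralogue Rps27l, a target of p53, was also called, with a log2 fold change of 0.59 (SE 0.150, adjusted p = 0.0158).

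Rps6, whose protein is phosphorylated by S6 kinase when mTORC1 is active, had 220, 187, 193, 147 and 205 CPM in KO CP2 M. It had 133, 136 and 118 CPM in KO vehicle M, below every treated sample. The log2 fold change was 0.56 (SE 0.098, adjusted p = 0.000658). The members with the smallest changes were Rpl22, a large-subunit protein that also binds viral and cellular RNAs, and Rpl7. Rpl22 had 97.3, 86.1, 88.2, 82.1 and 104 CPM against 78.2, 78.4 and 75.9 CPM, which was a small difference without overlap (log2 fold change 0.24, SE 0.073, adjusted p = 0.0447). Rpsa had 461, 444, 445, 370 and 468 CPM against 370, 313 and 318 CPM, with L298 just above the highest vehicle sample (log2 fold change 0.39, SE 0.079, adjusted p = 0.00237). Of the other stalk and X-linked members named by rule, Rplp1 rose by 0.48, Rplp0 by 0.40, Rpl10 by 0.44 and Rps4x by 0.33 on the log2 scale.

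**Figure D2:**
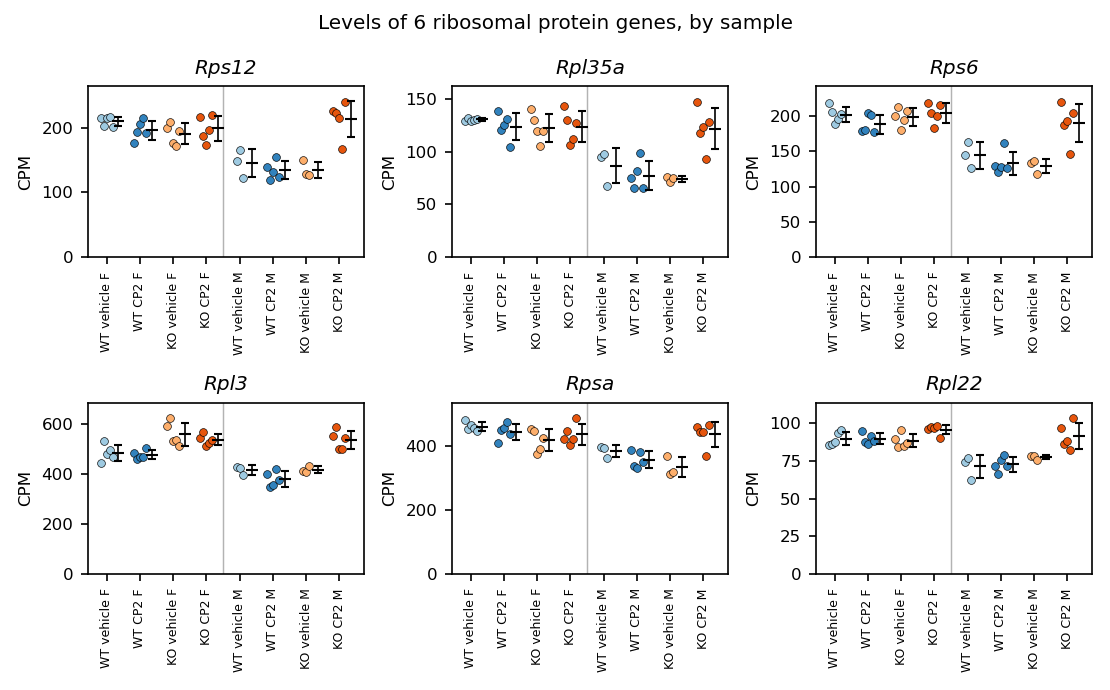
CPM (vertical axes, from 0) of Rps12, Rpl35a, Rps6, Rpl3, Rpsa and Rpl22 in each sample of the 8 groups, with the group mean and SD beside the points. In each panel the mean of KO CP2 M lies near those of the 4 F groups and above those of the other 3 M groups, and Rps12 goes from 127 to 150 CPM in KO vehicle M to 166 to 241 CPM in KO CP2 M.

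The log2 fold changes in KO M were smaller in many members without L266 and L291. Rpl35a then had 0.63 (SE 0.138, adjusted p = 0.0165), Rps6 0.49 (adjusted p = 0.0123), Rpsa 0.36 (adjusted p = 0.0303), Rplp1 0.42, Rplp0 0.41, Rpl10 0.38 and Rps4x 0.31, all still called. Rps27 (0.56, adjusted p = 0.0673), Rps28 (0.64, adjusted p = 0.17), Rps21 (0.49, adjusted p = 0.152), Rpl37a (0.61, adjusted p = 0.0613), Rps27l (0.49, adjusted p = 0.121), Rpl22 (0.24, adjusted p = 0.133) and Rpl7 (0.23, adjusted p = 0.133) were no longer called. The groups were apart in 58 members again, where 10.1% of all tested genes were. L266 and L291 were each the lowest KO CP2 M library in 0 of 77 members. Leaving them out could therefore not change this count of members.

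The number of calls in KO M depended on single vehicle samples and on whether the model held the share of reads outside genes. Without the vehicle library L322 it was 35 and without L319 it was 43, and without the CP2 libraries L266 and L291 together it was 39, with medians of 0.41, 0.40 and 0.39. In a model that also held the percentage of reads outside genes it was 0 of 79, although the median stayed at 0.39 (71 members at an unadjusted p under 0.05). The median SE was 0.119 in that model and 0.096 in the main fit. The percentage did not overlap between KO CP2 M (5.18% to 9.07%) and KO vehicle M (11.3% to 13.0%), so it cannot be fully told apart from the treatment. No gene of the whole table was called in that fit, and DESeq2 without that term called 74 members.

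The comparison of KO with WT under CP2 in M uses the same KO CP2 M samples as the comparison above. In it 76 members were higher and 0 lower in KO, where 4.75% of all tested genes were called higher, and the median log2 fold change was 0.45, a ratio of 1.37. In 39 members every KO sample was above every WT sample, against 4.76% of all tested genes. Rpl39l, Rpl3l and Rps29 were not called.

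Rps12, a small-subunit protein, had 226, 223, 215.8, 166 and 241 CPM in KO CP2 M and 139, 120, 132, 155 and 124 CPM in WT CP2 M. The groups did not overlap, with a log2 fold change of 0.68 (SE 0.085, adjusted p = 2.02e-06). Rpl3, which helps to form the peptidyl transferase centre, had 551, 587, 501, 500 and 543 CPM against 398, 348, 354, 421 and 377 CPM. The groups were again apart, and the log2 fold change was 0.50 (SE 0.062, adjusted p = 2.02e-06). Rpl35a (log2 fold change 0.66), Rps21 (0.66), Rps27 (0.64) and Rpl37a (0.64) followed Rps12 in size, and in each of these 4 the lowest KO sample overlapped the WT samples. In Rps6 the WT sample L267 with 161 CPM was above L298 with 147 CPM, while the other WT samples had 121 to 129 CPM (log2 fold change 0.52, SE 0.083, adjusted p = 6e-05). The smallest change was that of Rpsa, with 389, 337, 331, 381 and 349 CPM in WT and a log2 fold change of 0.29 (SE 0.068, adjusted p = 0.00368).

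Leaving out any 1 of the 10 libraries left 68 to 77 members called, and leaving out L266 and L291 together left 60 with a median of 0.42. In that fit Rps12 had a log2 fold change of 0.63 (adjusted p = 0.000185), Rpl3 of 0.44 (adjusted p = 0.00025), Rpl35a of 0.57, Rps6 of 0.45, Rps27 of 0.49 and Rpsa of 0.26 (adjusted p = 0.0469), while Rps21 (0.46, adjusted p = 0.0731), Rplp1 (0.28) and Rps27l (0.43) were not called. The groups were again apart in 39 members, against 7.86% of all tested genes. This count of members could not change either, since neither library was the lowest of KO CP2 M in any member of at least 1 CPM. In the model with the outside-gene percentage, 52 members were called with a median of 0.41, where 862 of all tested genes were called. That percentage was 5.18% to 9.07% in KO CP2 M and 9.05% to 13.2% in WT CP2 M. It therefore cannot be fully told apart from the genotype here. Averaged over F and M, KO with CP2 against WT with CP2 called 59 members higher and 0 lower, where 5.54% of all tested genes were called higher. The median was 0.25, and the largest changes were those of Rpl17 (0.38), Rps27 (0.35), Rps21 (0.35), Rps12 (0.35) and Rpl3 (0.34). In the average of CP2 against vehicle in KO, 47 members were higher and 0 lower against 2.08% of all tested genes, with a median of 0.23. Its largest changes were in Rps21 (0.38), Rpl35a (0.36), Rps12 (0.36), Rps9 (0.34) and Rpl34 (0.33). The 2 averages called 46 and 28 members without L266 and L291, with medians of 0.22 and 0.21. Both averages join an M value with an F value near 0.

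In the F mice the members hardly moved. CP2 against vehicle in KO F called 0 of 79 members, where 0.0859% of all tested genes were called, and 0 members had an unadjusted p under 0.05 in edgeR. DESeq2 also called 0. The median log2 fold change was 0.03, and the members of at least 1 CPM lay between -0.10 and 0.12, with a median SE of 0.082. Rpl22 (0.12, SE 0.062) and Rpl5 (0.08, SE 0.057) had the smallest p. Of the members that led in M, Rpl35a had a log2 fold change of 0.01 (SE 0.110), Rps6 of 0.04 (SE 0.083) and Rps12 of 0.06 (SE 0.085). Rps12 had 217, 188, 174, 196 and 219 CPM in KO CP2 F and 200, 209, 176, 173 and 195 CPM in KO vehicle F, which overlapped throughout. KO against WT under CP2 in F called 0 members by edgeR and by DESeq2, where 2.0% of all tested genes were called, with 8 members at an unadjusted p under 0.05. Their median was 0.04, with Rpl7 at 0.17 (SE 0.060) and Rpl3 at 0.17 (SE 0.062) as the members of smallest p. For Rpl3 every KO CP2 F sample (510 to 568 CPM) was above every WT CP2 F sample (458 to 504 CPM), although its adjusted p was 0.133.

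The knockout alone moved few members. In vehicle-treated F mice 1 member was higher and 0 lower, where 2.02% of all tested genes were called higher. That member was Rpl3, with 591, 623, 530, 534 and 511 CPM in KO and 444, 533, 480, 496 and 469 CPM in WT. The WT sample L277 with 533 CPM lay within the range of the KO samples (log2 fold change 0.20, SE 0.062, adjusted p = 0.0462). Rplp1 had a log2 fold change of -0.23 (SE 0.084, adjusted p = 0.102), and the median over the members was -0.04. In vehicle-treated M mice edgeR and DESeq2 called 0 members, against 0.516% of all tested genes, with 1 member at an unadjusted p under 0.05 and a median of -0.07. Rpl23a (-0.17) and Rpsa (-0.21) had the smallest p. In the average of F and M 1 member, Rpsa, was lower (log2 fold change -0.17, SE 0.055, adjusted p = 0.0499), where 3.8% of all tested genes were called lower. The Rpl3 call was lost when any of 7 of the 10 libraries was left out, and the Rpsa call was lost in DESeq2.

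In wild-type mice no effect of CP2 on the members was detected. By edgeR and by DESeq2 0 members were called in F, in M and in their average, where 0.0%, 0.0% and 0.0% of all tested genes were called by edgeR. The counts of members at an unadjusted p under 0.05 were 0, 0 and 3. The medians were -0.07 in each, and 76 of 79 members in F and 69 of 79 in M were below 0, with a median SE of 0.082 and 0.094. Among the members of smallest p were Rpl27a (-0.13) in F, and Rpl17 (-0.16) and Rps20 (-0.16) in M. Rpl3l, the muscle form, was at 1.54 in F (SE 0.808, adjusted p = 1.0) with 0.0971 to 0.414 CPM after CP2 and 0.0172 to 0.0958 CPM with vehicle, which are few counts.

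**Figure D3:**
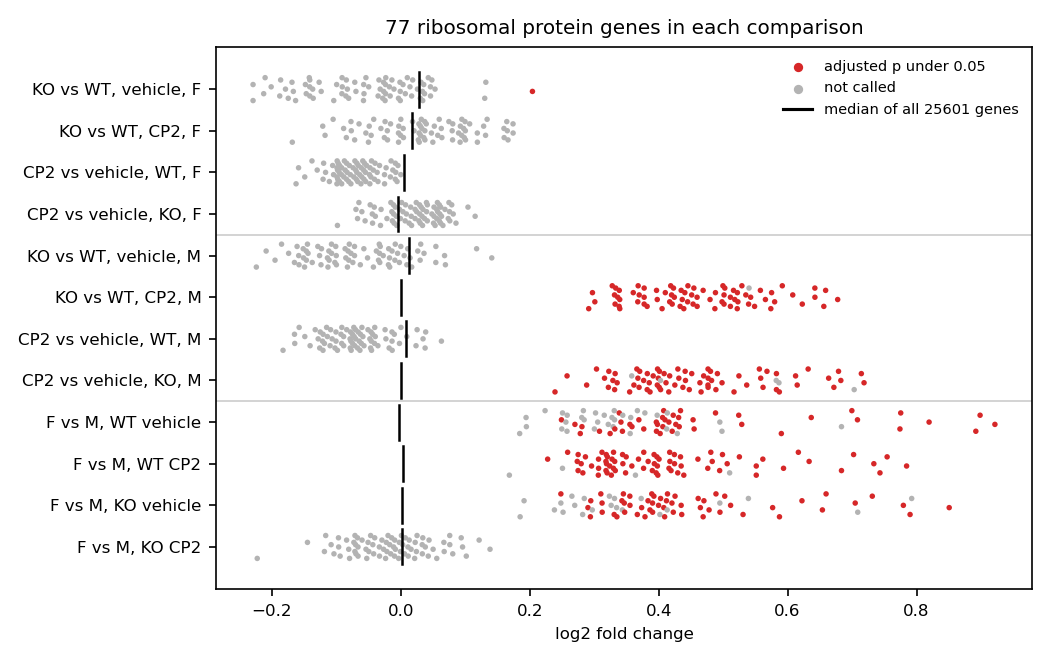
Log2 fold change (horizontal axis) of the 77 members of at least 1 CPM in 12 comparisons, with called members in red and the median of all 25601 genes as a black line. The points lie around 0 in the 4 F comparisons, between 0.29 and 0.68 for KO against WT with CP2 in M and between 0.24 and 0.72 for CP2 against vehicle in KO M, and above 0 when F is set against M in 3 of the 4 conditions.

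Whether the CP2 effect differed between F and M was tested directly in KO. The change in F minus that in M was negative in 78 of 79 members, with a median of -0.42, and 17 members passed the test as lower, where 0.344% of all tested genes were called lower. The largest differences were those of Rps27 (-0.81, SE 0.198, adjusted p = 0.0473), Rpl35a (-0.71, SE 0.169), Rps12 (-0.60, SE 0.130), Rps19 (-0.58, SE 0.131) and Rpl34 (-0.56, SE 0.124). Without L266 and L291 the count was 0 and the median -0.37, with Rps27 at -0.66 (adjusted p = 0.196). The count was also 0 without the vehicle library L322 and 43 without L298. The genotype by CP2 interaction, averaged over F and M, was positive in 78 of 79 members with a median of 0.30. In it 25 members were higher, where 0.316% of all tested genes were called higher, 14 of 31 in the small subunit and 11 of 48 in the large. Rpl35a (0.48), Rps12 (0.47), Rps6 (0.41), Rps16 (0.41) and Rps9 (0.41) led it. The interaction had a median of 0.28 without L266 and L291 and called 1 member, Rps12 (0.45, adjusted p = 0.0431). Its count was 0 in the model with the outside-gene percentage, and 0 without any one of KO vehicle M L322, WT vehicle M L285 and WT vehicle M L300.

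Set against each other directly, F samples had more ribosomal protein mRNA than M samples in 3 of the 4 conditions. These 4 comparisons were added after the values by sample were seen. With vehicle, F was higher than M in WT for 44 members (median 0.38, 0.363% of all tested genes called higher) and in KO for 55 members (median 0.39, 1.09% of all tested genes). With CP2, F was higher than M in WT for 73 members (median 0.39, 1.29% of all tested genes). In KO with CP2, 0 members were called by edgeR and by DESeq2, where 0.0586% of all tested genes were called, with 0 members at an unadjusted p under 0.05 and a median of -0.01, which was 0.03 without L266 and L291 (0 called). The small proteins again led: in WT vehicle Rps29 (0.92), Rps28 (0.90), Rpl38 (0.89), Rps21 (0.82) and Rps27 (0.78), in WT CP2 Rps29 (0.78), Rps28 (0.75), Rpl37 (0.74), Rpl38 (0.73) and Rps21 (0.70), and in KO vehicle Rps27 (0.85), Rps28 (0.79), Rpl37 (0.78), Rpl35a (0.73) and Rps21 (0.70). In KO with CP2, Rps10 (-0.22) and Rpl19 (0.12) had the smallest p.

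Rps28 shows this pattern in single samples. It had 59.7, 75.9, 73.2, 65.8 and 66.5 CPM in WT vehicle F and 36.6, 46.1 and 27.0 CPM in WT vehicle M, without overlap. In KO CP2 F it had 63.8, 61.9, 50.3, 59.8 and 64.1 CPM and in KO CP2 M 63.2, 56.0, 60.0, 36.9 and 70.0 CPM. The KO CP2 M samples other than L298 thus lay at the level of the F samples. The F and M samples cannot be told apart from other differences between these mice that the labels do not give, and the labels name no library or sequencing batch. In the model with the outside-gene percentage, F against M called 24 members in KO vehicle, 1 in WT CP2 and 0 in WT vehicle. The medians were 0.37, 0.33 and 0.33, and 176, 15 and 8 of all tested genes were called.

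The shorter members had the larger changes. Across the 77 members, Spearman's rho between coding length and log2 fold change was -0.54 for CP2 against vehicle in KO M and -0.40 for KO against WT with CP2 in M. The coding lengths ran from 75 to 1257 bases, and these points share the same libraries, so the values only describe them. Members under 400 coding bases (26) had a median log2 fold change of 0.53 after CP2 in KO M, those of 400 to under 600 bases (30) 0.45 and those of 600 bases and over (21) 0.39. For KO against WT with CP2 in M the medians were 0.53, 0.45 and 0.42. The correlations were -0.46 and -0.30 without L266 and L291, with medians in the 3 length classes of 0.46, 0.40 and 0.36 after CP2 and of 0.47, 0.41 and 0.39 for KO against WT. In F the same correlations were 0.27 and 0.53, with medians near 0. The small subunit had a slightly higher median than the large subunit in KO M, 0.48 against 0.41, or 0.42 against 0.37 without L266 and L291. For the share of sequence found in other genes rho was -0.07 in the first comparison and 0.04 in the second, and the 11 members with under 30% of shared windows had medians of 0.40 and 0.42. The 4 X-linked members had log2 fold changes after CP2 in KO M of 0.33 (Rps4x), 0.44 (Rpl10), 0.45 (Rpl36a) and 0.40 (Rpl39, not called).

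**Figure D4:**
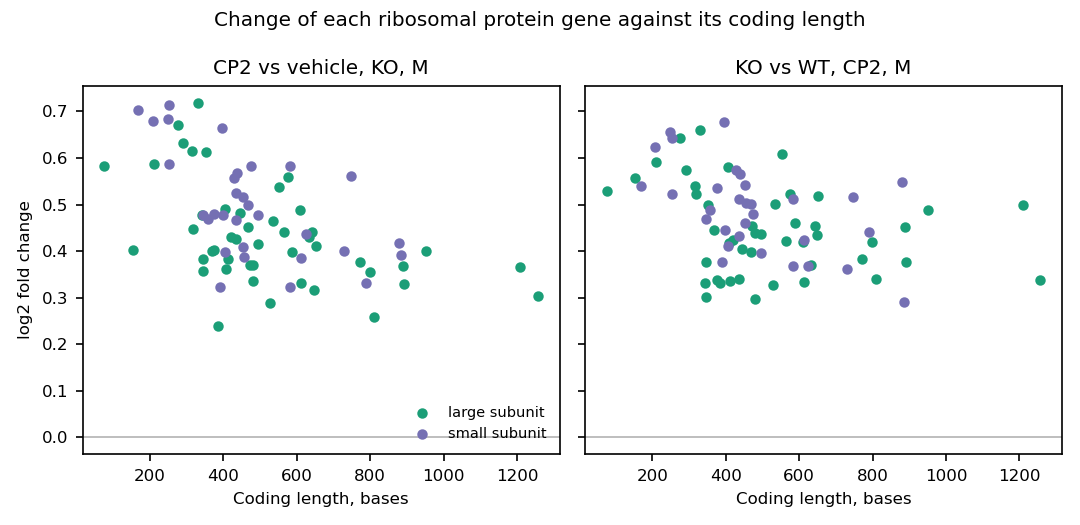
Log2 fold change (vertical axis) of the 77 members against coding length in bases (horizontal axis), for CP2 against vehicle in KO M and for KO against WT with CP2 in M, by subunit. All 77 points lie above 0 in both panels, and the members under 400 bases have the higher values, with medians of 0.53 in each.

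Short mRNAs outside the family also had positive medians. Other protein-coding genes of at least 30 CPM had median log2 fold changes after CP2 in KO M of 0.35 for transcripts under 600 bases (56 genes, 11 higher and 0 lower), 0.21 for 600 to under 1000 bases (214 genes, 42 and 1), 0.11 for 1000 to under 2000 bases (1019 genes, 106 and 16) and -0.01 for 2000 bases and over (5063 genes, of which 431 were called and 148 of these were higher). For KO against WT with CP2 in M they were 0.26, 0.16, 0.09 and -0.01. These medians were, without L266 and L291, 0.33, 0.20, 0.10 and -0.01 after CP2 and 0.24, 0.16, 0.09 and -0.01 for KO against WT. In WT vehicle, F against M gave 0.34, 0.20, 0.11 and 0.03. In both KO CP2 M comparisons the members' change thus moved with coding length, and that of other genes with transcript length. The part of length in the members' change was not tested.

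The other genes of the translation machinery were read as lists. Of 7 ribosomal protein genes outside the naming pattern, 3 rose after CP2 in KO M: Fau (0.53), which encodes a fused small-subunit protein, Rack1 (0.29), a scaffold on the small subunit, and Rpl7l1 (0.28). In KO against WT with CP2 4 rose, among them Fau (0.48), Rpl22l1 (0.45) and Rack1 (0.29). Of 21 translation factors and other mRNAs with a terminal oligopyrimidine motif, 10 rose and 0 fell after CP2 in KO M (median 0.23), among them Tpt1 (0.49) and Eef1b2 (0.45), an exchange factor of elongation. In KO against WT with CP2 in M 14 rose and 0 fell (median 0.30), led by Eif3f (0.54), a subunit of an initiation factor, and Eef1a1 (0.47), the elongation factor that brings tRNA. Their summed level was 6481 to 7037 CPM in KO CP2 M, 5409 to 5589 CPM in KO vehicle M and 5054 to 5825 CPM in WT CP2 M, so that KO CP2 M stood above both. Without L266 and L291, 2 and 3 of the 7 genes outside the pattern and 8 and 12 of the 21 rose in these 2 comparisons, and 0 fell. In F the summed levels of the 4 groups overlapped, between 5979 and 7131 CPM.

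Genes that make ribosomes had calls in both directions. After CP2 in KO M 2.74% of all tested genes were called lower, and 5.24% in KO against WT with CP2 in M, beside the 2.36% and 4.75% called higher. Of 30 ribosome assembly factors, 0 rose and 1 fell after CP2 in KO M, Nop56 (-0.25) of the box C/D particles. In KO against WT with CP2 in M 1 rose, the nucleolar protein Ncl (0.27), and 4 fell, with Utp20 (-0.43) the largest. Of 14 tested genes of RNA polymerase I and its factors, 1 rose, the shared subunit Polr1d (0.37), and 1 fell, Taf1d (-0.58), after CP2. In KO against WT with CP2 in M 0 rose and 3 fell, among them Taf1d (-0.44) and Taf1a (-0.36). Of 20 genes of the mTORC1 pathway, 0 rose and 3 fell after CP2 in KO M, the S6 kinase gene Rps6kb2 (-0.74) and the inhibitors Tsc2 (-0.25) and Tsc1. In KO against WT with CP2 in M 2 rose, Deptor (0.47) and Sesn3, and 2 fell, Rps6kb2 (-0.59) and Tsc1. Of 78 mitochondrial ribosomal protein genes, 7 rose and 0 fell after CP2 in KO M (median 0.17), with Mrps21 (0.53) and Mrpl52 (0.47) the largest. For KO against WT with CP2 in M 7 rose and 1 fell (median 0.08), led by Mrpl2 (0.51) and Mrps18c (0.41). The medians of the cytosolic members in these 2 comparisons were 0.44 and 0.45. When L266 and L291 were left out, the calls after CP2 in KO M were 1 assembly factor (Nop56, lower), 0 of RNA polymerase I, 0 of mTORC1 and 1 mitochondrial ribosomal protein, higher. In KO against WT they were 1 higher and 3 lower, 0, 1 higher (Deptor) and 1 lower (Tsc1), and 2 higher.

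The share of reads outside annotated genes moved with the members in M. It was 11.3% to 13.0% in KO vehicle M, 9.05% to 13.2% in WT CP2 M, 9.48% to 11.6% in WT vehicle M and 5.18% to 9.07% in KO CP2 M, where L298 had the highest value. In the F groups it was 5.09% to 11.7%. In 4 F libraries it was 10.1% to 11.7%, within the range of the M samples, and these had 1.56% to 1.72% of gene counts on the members, against 1.36% to 1.67% in the other 16 F samples. Within KO vehicle F the 3 libraries of this kind had 1.56% to 1.72% and the other 2 had 1.395% and 1.499%. The 11 libraries of the other M groups and L298, with 9.05% to 13.2% outside genes, had 1.07% to 1.33% on the members. Reads without a unique match took 4.85% to 5.58% in KO CP2 M, 4.29% to 4.54% in KO vehicle M, 4.29% to 4.61% in WT CP2 M and 4.05% to 4.44% in WT vehicle M. The part of these shares in the members' change was not tested beyond the model given above.

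**Figure D5:**
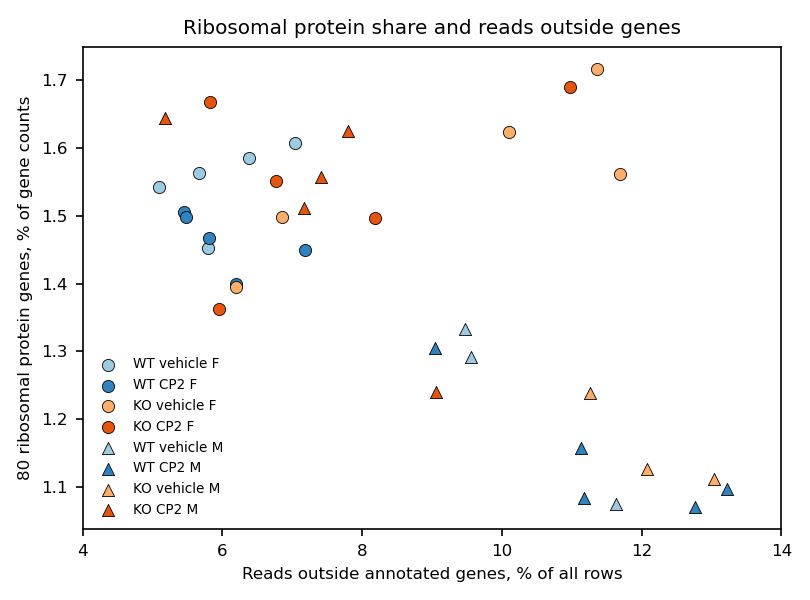
Percent of gene counts on the 80 members (vertical axis, not from 0) against the percent of reads outside annotated genes (horizontal axis) in the 36 samples, circles for F and triangles for M. The M samples run from high member shares at 5.18% outside genes to low ones at 13.2%, while 4 F samples at 10.1% to 11.7% outside genes keep member shares of 1.56% to 1.72%.

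Markers of cell types also moved in KO CP2 M. Of 6 microglia markers 3 rose after CP2 in KO M, among them Tmem119 (0.52), and 5 rose in KO against WT with CP2 in M, among them C1qa (0.51) and P2ry12 (0.48). Their summed level was 351 to 462 CPM in KO CP2 M, 305 to 367 CPM in KO vehicle M and 276 to 347 CPM in WT CP2 M. Of 6 astrocyte markers 1 rose after CP2, Aldoc (0.39), and 2 rose in KO against WT, Gfap (1.68) and Gja1 (0.38), with sums of 2594 to 4000 CPM, 1828 to 3765 CPM and 1994 to 2483 CPM. Of 6 oligodendrocyte markers Mbp rose in both, by 0.58 and 0.40, with sums of 8210 to 15120 CPM, 7828 to 9221 CPM and 8647 to 11169 CPM. Of 6 endothelial markers Itm2a rose in both, by 0.48 and 0.45, with sums of 231.2 to 294.6 CPM, 225.1 to 239.8 CPM and 190.4 to 257.4 CPM. None of the 6 neuron markers was called in either comparison, with sums of 6273 to 7550 CPM, 6974 to 7736 CPM and 6361 to 7562 CPM. Of 8 hippocampal markers 0 were called after CP2 in KO M, and in KO against WT with CP2 Wfs1 rose (0.65) and Dsp fell (-1.66). None of 6 choroid plexus, 5 red cell and 6 striatal markers was called in either comparison. The choroid plexus sum, to which Ttr, the transthyretin gene, contributes, was uneven between samples. It was 1601, 2554, 2768, 196.0 and 1948 CPM in KO CP2 M, with the 196.0 CPM in L298, against 591 to 1105 CPM in KO vehicle M, 735 to 1884 CPM in WT CP2 M and 678 to 1066 CPM in WT vehicle M. Its group means were 1249 to 1725 CPM in F, 1813 CPM in KO CP2 M and 874 to 1143 CPM in the other M groups, with wide spreads within groups. The median log2 fold change of its 6 markers was 0.998 after CP2 in KO M and 0.43 in KO against WT with CP2 in M, and for F against M it was 0.76 in WT vehicle, 0.87 in KO vehicle, 0.43 in WT CP2 and -0.63 in KO CP2. The red cell sum was 23.4 to 193 CPM in KO CP2 M, lowest in L298, against 38.6 to 87.3 CPM in KO vehicle M and 74.6 to 130 CPM in WT CP2 M, with medians of 0.96 and 0.30. Without L266 and L291, 2 and 5 microglia, 0 and 1 astrocyte, and 1 and 1 each of the oligodendrocyte and endothelial markers rose in the 2 comparisons, and Dsp was not called. The part of cell or region make-up in the members' change was not tested, apart from a fit with a score of the hippocampal markers as a covariate, in which 64 and 71 members were called.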

How the data were processed

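Per the labels' protocols, Illumina libraries were prepared from polyA RNA isolated by a Trizol method. The deposited table holds raw counts per Ensembl gene, and STAR, HTSeq and the genome build GRCm39 are named in the submitters' processing notes. Versions, annotation release, strandedness and read filters are not given in the sources used here, so overlapping and antisense genes are uncertain. The 5 summary rows of the counting tool were left out of library sizes: reads outside genes were 5.09% to 13.2% of all rows. Symbols, transcript classes and coding lengths came from GENCODE M21, which matched 52073 of 56980 identifiers (91.4%, holding 97.2% of counts).

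Genes were tested with edgeR 4.0.16 (R 4.3.3): TMM library sizes, filterByExpr, robust quasi-likelihood fit of 8 groups over all 36 samples, 14 planned and 4 added contrasts, Benjamini-Hochberg adjustment over 25601 genes, calls at an adjusted p under 0.05. Standard errors are the log2 fold change over the root of the F statistic. CPM use TMM library sizes. DESeq2 1.42.0 was an alternative, as were RLE library sizes, no count filter, the members left out of the library sizes, 2 covariates, only the groups compared, and each replicate left out. Data were simulated with 1.5-fold changes in genes drawn at random from all tested genes (24789 genes tested). Of 198 changed genes, 39.9% were called in KO against WT with CP2 in M and 33.8% in CP2 against vehicle in KO M. The unchanged genes called were 2 and 1. In 66 replicate pairs the mean chi-square was 11.5 to 117, so no pair agreed within sampling noise.

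Sequences are RefSeq start windows of GRCm38.p6. Members, lists and tests were chosen with earlier results of these data known. Members named in the text were Ndufs4, a set of stalk, X-linked and paralogous genes, the 3 highest and 3 lowest per length, up to 5 called members per direction with at least 1 CPM and the largest change in each contrast, or the 2 of smallest p where fewer than 2 were called, and up to 2 called genes per other list; Rps12, Rps6, Rpl3, Rps28 and others shown in more comparisons than this were chosen after their values were seen. The results of a few genes that these rules name are not reported here.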

Additional observations from a re-analysis of the deposited data

Results flagged for a closer look

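In groups of 4 or more samples the lowest or highest value was compared with its nearest neighbour, for 54 sets of values. A gap above 0.71 of the group's range was found in 4 of them, and chance gives about 1 in 20. Rpl22 was at 90.4 CPM in KO CP2 F L234, below the other 4 samples at 96.3 to 98.2 CPM. Rplp0 was at 252.5 CPM in WT CP2 F L272, above the others at 229.7 to 233.7 CPM. Rpsa was at 370.0 CPM in KO CP2 M L298, below the others at 444 to 468 CPM. Rps6 was at 161 CPM in WT CP2 M L267, above the others at 121 to 129 CPM.

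Effects that differed between groups by a test of the difference were the genotype by CP2 interaction and the difference between F and M in the CP2 effect in KO. The interaction was called in 25 members, with log2 differences of 0.48 in Rpl35a, 0.47 in Rps12, 0.41 in Rps6, 0.41 in Rps16 and 0.41 in Rps9. The difference between F and M was called in 17 members, with -0.81 in Rps27, -0.71 in Rpl35a, -0.60 in Rps12, -0.58 in Rps19 and -0.56 in Rpl34. Both counts changed with the libraries and settings given in the next part.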

How the results depend on the processing

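No called result changed its direction under any alternative, and KO against WT with CP2 in M and its average over F and M stayed within 1.5 times of their counts in all of them. In the model with the outside-gene percentage, the called members were 0 for CP2 against vehicle in KO M, 0 for its average over F and M, 0 for the interaction, 1 for F minus M of the CP2 effect, 24, 1 and 0 for F against M in KO vehicle, WT CP2 and WT vehicle, and 0 for the knockout with vehicle in F and in the average. With only the groups compared they were 20 for the KO average, 0 for F minus M of the CP2 effect, 19 for F against M in KO vehicle, and 0 for the knockout with vehicle in F and in the average. Without L266 and L291, an alternative chosen after seeing the data, they were 39 in KO M, 28 in the KO average, 1 in the interaction, 0 in F minus M of the CP2 effect and 0 in the vehicle average. DESeq2 gave 31 for F minus M of the CP2 effect and 0 for the vehicle average. RLE library sizes and leaving the members out of the library sizes gave 0 for the vehicle average, and testing without the count filter gave 0 for the knockout with vehicle in F. In comparisons with 0 called members the median crossed 0: for F against M in KO CP2 it was 0.03 without L266 and L291 and -0.07 to 0.02 with 1 library left out, for CP2 against vehicle in KO F -0.01 to 0.06, and for the knockout with vehicle in M -0.19 to 0.02. The cause of these changes was not tested.

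Leaving out 1 library gave 35 to 77 members for CP2 in KO M, 19 to 63 for the KO average (19 without KO vehicle M L322), 20 to 63 for F against M in KO vehicle (20, 21 and 30 without KO vehicle M L322, L319 and KO vehicle F L246), 44 to 75 in WT CP2 (44 without WT CP2 M L262), 0 to 1 for the knockout with vehicle in F and 0 to 7 in the average (7 without WT vehicle M L303). For F against M in WT vehicle it gave 0 to 46, with 0 without WT vehicle M L303, 12 and 22 without WT vehicle F L296 and L295, 22 without M L285 and 28 without F L277. For the interaction it gave 0 to 55, with 0 without KO vehicle M L322 or WT vehicle M L285 or L300, 9 to 16 without KO CP2 M L266, L292 or L299, KO vehicle M L319, WT CP2 M L262, L263 or L289 or F libraries L234, L281, L240, L311 or L296, and 40 and 55 without KO CP2 M L298 and WT vehicle M L303. For F minus M of the CP2 effect it gave 0 to 43, with 0 to 8 without KO vehicle M L310, L319 or L322, KO CP2 M L266, L291, L292 or L299 or F libraries L227, L233, L246 or L279, and 27 to 43 without KO CP2 F L201 or L234, KO vehicle F L281 or KO CP2 M L298. A group of 3 is left with 2 samples there and borrows its spread from the other groups.

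No paired analysis was possible because each sample number occurs once. With 3 to 5 samples a group, members below the threshold are not shown to be unchanged. The simulated recovery of 33.8% to 39.9% for 1.5-fold changes was that of genes drawn at random from all tested genes. It was not measured for the members. Their median SE was 0.082 in KO against WT with CP2 in M and 0.096 in CP2 against vehicle in KO M.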
